A study of Sus scrofa with 16 samples.

Results

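Iron regulation and transport was followed at 10 genes in the colonic mucosa and liver of pigs: the regulators HFE2, HFE and HAMP, the carrier TF and its receptor TFRC, the exporter SLC40A1, the storage proteins FTH1 and FTL, the oxidase CP and the haem oxygenase HMOX1. A non-control probe of the array was a member when its gene name, or the symbol in brackets in its description, was one of these 10. The rule found 28 of 43603 probes, for 8 of the 10 genes: 10 probes for FTH1, 5 for CP, 3 each for HFE2, TF and HMOX1, 2 for HAMP and 1 each for TFRC and FTL. HFE and SLC40A1 had none by name. A further probe, A_72_P256402, is described in the scanner files as ferroportin without the symbol; it lies outside the rule and is named as such where its values are given. The genes were selected on earlier results of these data, and HFE2 is among the genes that the study lists as different between RPS and CS in the colon, so that it was in effect chosen on that comparison. All differences between diets in the colon are therefore given as a description, with no test. Liver and tissue differences did not enter the study's listing of HFE2, and these were tested. Since the genes were picked with earlier results of these data known, the liver and tissue p-values and shares are not free of that selection.

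The animals were Duroc × Landrace × Large White castrated males aged 170 d. From 70 d of age they ate for 100 days a corn and soybean diet that held either purified corn starch (CS, the control) or raw potato starch (RPS, a starch that largely escapes digestion in the small intestine), at 230 g/kg and, from 120 d of age, at 280 g/kg. Each of the 4 groups, colon CS, colon RPS, liver CS and liver RPS, consisted of 4 pigs with 1 array each, so p-values measure the spread among these few animals. The 4 arrays of a group shared 1 slide and 1 scan, and slide and group cannot be told apart in any comparison below. All levels are log2 signals of a one-colour array. They can be compared between samples for 1 probe, but not between probes, because probes differ in how brightly they bind.

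Iron is taken from the blood by cells that carry the transferrin receptor, stored inside ferritin shells made of heavy and light chains, and released through ferroportin. The liver governs this traffic by secreting hepcidin, the HAMP product, a small peptide that blocks ferroportin and so keeps iron inside gut cells and macrophages. Hemojuvelin, the HFE2 product, is a co-receptor for bone morphogenetic proteins on hepatocytes and skeletal muscle and switches HAMP on through SMAD proteins. Iron regulatory proteins act on the mRNAs of the pathway: they stabilise TFRC mRNA when iron is scarce, and they hold back the translation of ferritin mRNA, which changes the ferritin protein more than its message.

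What each member probe can read is set by its 60-base sequence, and those the results turn on are shown here as the scanner files give them. In the first, the HAMP probe from the end of the coding region, capitals mark the 8 cysteine codons that hold the mature peptide together, so this probe reads hepcidin itself. Capitals in the first HFE2 probe mark a cysteine codon of its open frame. The second HFE2 probe is the brightest of that gene and the one behind the colonic values, and only its first 30 bases are given. In the TFRC and FTL probes, printed to the end of the reading frame, capitals mark the stop codon.
HAMP A_72_P458477: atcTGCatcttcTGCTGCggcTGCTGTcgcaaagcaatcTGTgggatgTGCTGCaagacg
HFE2 A_72_P708855: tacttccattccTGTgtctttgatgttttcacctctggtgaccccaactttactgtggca
HFE2 A_72_P733318, bases 1 to 30: gacaggaaggaaactatcagccccactcct
TFRC A_72_P035411, bases 1 to 39: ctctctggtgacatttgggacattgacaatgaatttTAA
FTL A_72_P050477, bases 1 to 36: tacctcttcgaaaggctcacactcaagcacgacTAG

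Several FTH1 probes lie on one another, and 3 of them are shown with the 19 bases they share in capitals. Of the 45 pairs of FTH1 probes, 9 shared a run of 15 or more bases. They formed 2 chains of 4 overlapping probes each (A_72_P729674, A_72_P731798, A_72_P738757 and A_72_P789226 in the first, A_72_P223812, A_72_P733169, A_72_P760130 and A_72_P773527 in the second), with A_72_P755261 and A_72_P757935 apart from both. These 10 probes read the same gene and are not 10 independent measurements. Of the other genes with several probes, only CP had an overlapping pair (1 of 10 pairs).
FTH1 A_72_P729674: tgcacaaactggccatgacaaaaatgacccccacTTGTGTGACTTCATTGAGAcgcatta
FTH1 A_72_P731798: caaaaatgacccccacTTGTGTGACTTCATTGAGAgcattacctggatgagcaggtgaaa
FTH1 A_72_P789226: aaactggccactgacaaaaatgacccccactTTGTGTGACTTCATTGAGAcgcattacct

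All 28 member probes were well above background on all 8 liver arrays, and 19 of them also on all 8 colon arrays; 3 (one each of HFE2, TF and CP) were not well above background on any colon array. Over all probes, 61.1% to 72.2% were well above background on an array, and the median raw signal was 56.3 to 70.8 on the colon CS arrays and 34.2 to 42.5 on the colon RPS arrays, before normalization. The labelled tissues were checked by their markers: all 7 hepatocyte genes measured were higher in the liver and all 7 genes of colonic epithelium higher in the colon. Within the colon, the epithelium list (mean log2 signal of its 7 genes) was 13.76 to 14.56 on 6 arrays but 11.88 on CS replicate 3 and 12.94 on RPS replicate 2. With arrays of whole tissue, fewer cells of a type and less RNA per cell cannot be told apart.

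Of the 8 measured genes, HFE2, HAMP, TF and CP had far higher signals in the liver than in the colon. HMOX1 and FTL were higher by less, and TFRC and FTH1 were not called at their brightest probe. In the comparison averaged over both diets, 18 of the 28 member probes passed an adjusted p of 0.05 and a fold change of 1.5 (limma over all probes, Benjamini-Hochberg), and all 18 were higher in the liver, against 18.7% of all probes higher in the liver and 23.4% higher in the colon by the same rule. Read at the brightest probe of each gene, 6 of 8 genes were higher in the liver. The median difference over the 28 probes, colon minus liver, was -2.14, and over all probes 0.01.

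Among the regulators, HFE2 stood at 13.28 to 13.83 in the 8 livers and at 4.46 to 6.94 in the 8 colons (A_72_P733318). The difference was -7.93 ± 0.18 (SE, n = 8 against 8, adjusted p = 6e-14), and the 2 tissues did not overlap. The other HFE2 probes gave -8.57, at a probe well above background on 2 of 8 colon arrays, and, for the probe not well above background in any colon, a signal at least 319.6-fold higher in the liver. HAMP stood at 16.08 to 16.94 in 7 livers, at 8.55 in the liver of RPS replicate 1, and at 5.61 to 8.97 in the colons (A_72_P302614). Because of that 1 liver the tissues overlapped, with a difference of -7.93 ± 1.05 (adjusted p = 1.67e-05). Without it the difference was -8.93 (adjusted p = 3.32e-09). Both HAMP probes were well above background on every colon array, so a hepcidin signal was measurable in the mucosa of all 8 colons.

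The blood-borne iron proteins showed the widest gaps. TF, the plasma iron carrier, stood at 18.04 to 18.26 in the livers and at 1.03 to 4.66 in the colons, where 5 of 8 arrays were well above background (A_72_P308693, difference -14.87 ± 0.38, adjusted p = 2.33e-13). At the TF probe with no colon array above background the liver was at least 14936-fold higher. CP, the copper oxidase that loads iron onto transferrin, stood at 16.32 to 17.03 in the livers against 2.47 to 3.94 in the colons, again with 5 colon arrays above background (A_72_P341938, difference -13.27 ± 0.23, adjusted p = 2.23e-15). All 3 TF and all 5 CP probes were called higher in the liver.

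The genes by which every cell takes up and stores iron differed less, at -0.76 to 0.03 over their probes with quantile normalization. TFRC stood at 4.87 to 7.10 in the livers and 4.73 to 6.57 in the colons (difference -0.42 ± 0.31, adjusted p = 0.288), and the tissues overlapped over nearly their whole range. FTH1 at its brightest probe stood at 18.46 to 18.62 in the livers and 18.30 to 18.73 in the colons (A_72_P733169, difference 0.03 ± 0.08, adjusted p = 0.765). Of its 10 probes, 1 was called (A_72_P757935, -0.76 ± 0.21, adjusted p = 0.00715), 8 had a lower mean in the colon and 2 a higher one; with each array scaled to its 75th percentile instead, all 10 were lower in the colon, at -1.16 to -0.44. FTL was called higher in the liver, at 18.46 to 18.78 against 17.05 to 18.53 (difference -0.63 ± 0.20, adjusted p = 0.0154). This call was lost without colon CS replicate 3 (-0.46), without colon RPS replicate 2 (-0.53), without the 3 colon arrays lowest in epithelium genes (-0.33) and in CS pigs alone (-0.52). With 75th-percentile scaling FTL was called at a wider difference, -1.16.

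HMOX1, which opens the haem ring and frees its iron, was higher in the liver at all 3 probes. It stood at 12.93 to 14.24 in the livers and 10.86 to 12.93 in the colons (A_72_P078091, difference -1.70 ± 0.26, adjusted p = 7.38e-05). The highest colon, CS replicate 1, reached the lowest liver, RPS replicate 3. The ferroportin-described probe outside the rule stood at 11.31 to 12.31 in the livers and 10.22 to 10.93 in the colons (difference -1.23 ± 0.14, adjusted p = 2.73e-06). The signal of this 1 probe was 2.35-fold lower in colonic mucosa than in liver, and no colon reached any liver.

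The wider iron pathway was read from 6 lists of 74 symbols, of which 45 genes had a probe. In the tissue comparison, read at the brightest probe of each gene, 25 of the 45 were higher in the liver and 7 higher in the colon, with a median difference of -0.77. Over all probes, which were not picked for brightness, 18.7% were higher in the liver and 23.4% in the colon. The 4 widest liver differences were those of the haem and haemoglobin scavengers HPX (-13.30 ± 0.11) and HP (-12.52 ± 0.11), of TFR2, the transferrin sensor of hepatocytes (-6.42 ± 0.21), and of the metalloreductase STEAP4 (-5.05 ± 0.38). The widest in the other direction were BMP2, a ligand that signals through hemojuvelin (1.42 ± 0.42), the porphyrin exporter ABCG2 (1.21 ± 0.48), SMAD7, which restrains SMAD signalling (1.01 ± 0.15), and HIF1A, a subunit of the oxygen-sensing factor (0.97 ± 0.17). ABCG2 was at the edge of the threshold (adjusted p = 0.04998).

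**Figure D1:**
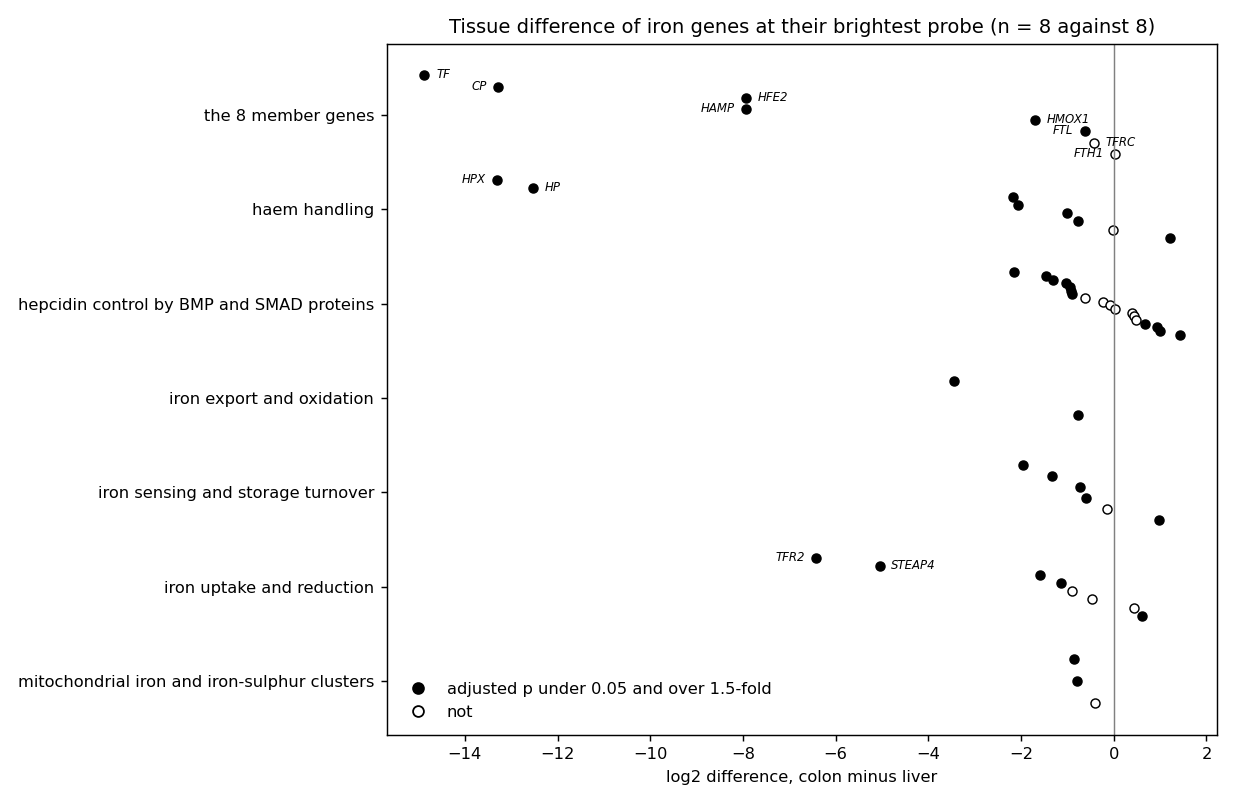
Log2 difference, colon minus liver, of each iron gene at its brightest probe (n = 8 against 8), for the 8 member genes and for the 6 pathway lists; filled points passed an adjusted p of 0.05 and a fold change of 1.5. TF, CP, HFE2 and HAMP lie between -14.87 and -7.93, HPX and HP at -13.30 and -12.52, while TFRC and FTH1 lie near 0.

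In the colon, hemojuvelin and the transferrin receptor were the 2 genes with every RPS array above every CS array at signals well above background on all 8 arrays. HFE2 (A_72_P733318) stood at 5.68, 4.91, 4.89 and 4.73 with CS and at 6.40, 6.06, 6.95 and 7.17 with RPS, without overlap. The means were 5.05 ± 0.43 and 6.65 ± 0.51 (SD, n = 4), a difference of 1.59 ± 0.31 (SE), or 3.02-fold. The study lists the gene by this probe for this contrast. The difference was 1.57 ± 0.37 without the 3 colon arrays lowest in epithelium genes (3 CS against 2 RPS arrays, a cut set after the data were seen). It was 0.73 after normexp background correction, which draws dim signals together.

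The other 2 HFE2 probes lay at or near background in the colon. A_72_P708855, the first HFE2 sequence above, was well above background on 1 array of each diet and stood at 2.21 ± 1.29 and 2.58 ± 1.12. A_72_P744195 was above background on none, at 0.97 to 1.07 with CS and 1.11 to 2.28 with RPS. The colonic HFE2 pattern was therefore read by 1 of the 3 probes only. Hepatocytes and skeletal muscle, where the gene is known to be strong, were checked by their markers. The hepatocyte list stood at 4.04 to 4.12 on the CS arrays of the colon and at 4.56, 3.77, 4.19 and 4.58 on the RPS arrays. None of its 7 genes passed the thresholds. TTR and CYP2E1 were above background on no colon array, and APOA1 (RPS minus CS 0.17 ± 0.47) and SERPINA1 (1.22 ± 1.01) on all 8. ALB (0.67 ± 0.44) was above background on 2 CS and 4 RPS arrays. APOC3 (-0.31 ± 0.13) was so on 4 CS and 2 RPS arrays, and ARG1 (-0.50 ± 1.17) on 2 of each diet. The skeletal muscle list stood at 4.61 to 5.05 on the CS arrays and 4.69 to 5.37 on the RPS arrays. In it 1 of 10 genes (MYH7, 0.69 ± 0.18) was past the thresholds and 4 were above background on no colon array. Of these 4, the 3 heavy chains MYH1, MYH2 and MYH4 are read by the same probe. The part of these cells in the HFE2 values was not tested.

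TFRC stood at 5.23, 5.09, 5.31 and 5.001 with CS and at 5.96, 5.53, 5.77 and 6.82 with RPS. All 4 RPS pigs lay above the CS pigs, whose values were close together, and RPS replicate 4 was highest. The difference was 0.86 ± 0.27, or 1.81-fold, and 0.75 ± 0.13 without the 3 colon arrays lowest in epithelium genes (3 CS against 2 RPS arrays). It was 0.59 without RPS replicate 4 and 0.38 after normexp correction, the latter under 1.5-fold. HFE2 and TFRC were the 2 of 28 member probes past an unadjusted p of 0.05 and a 1.5-fold change in the colon, where 2.94% of all probes were. With the dim probe A_72_P744195 they were also the 3 of 28 whose diets did not overlap, against 6.52% of all probes. Since this contrast served to choose HFE2, nothing is read from these counts and shares.

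**Figure D2:**
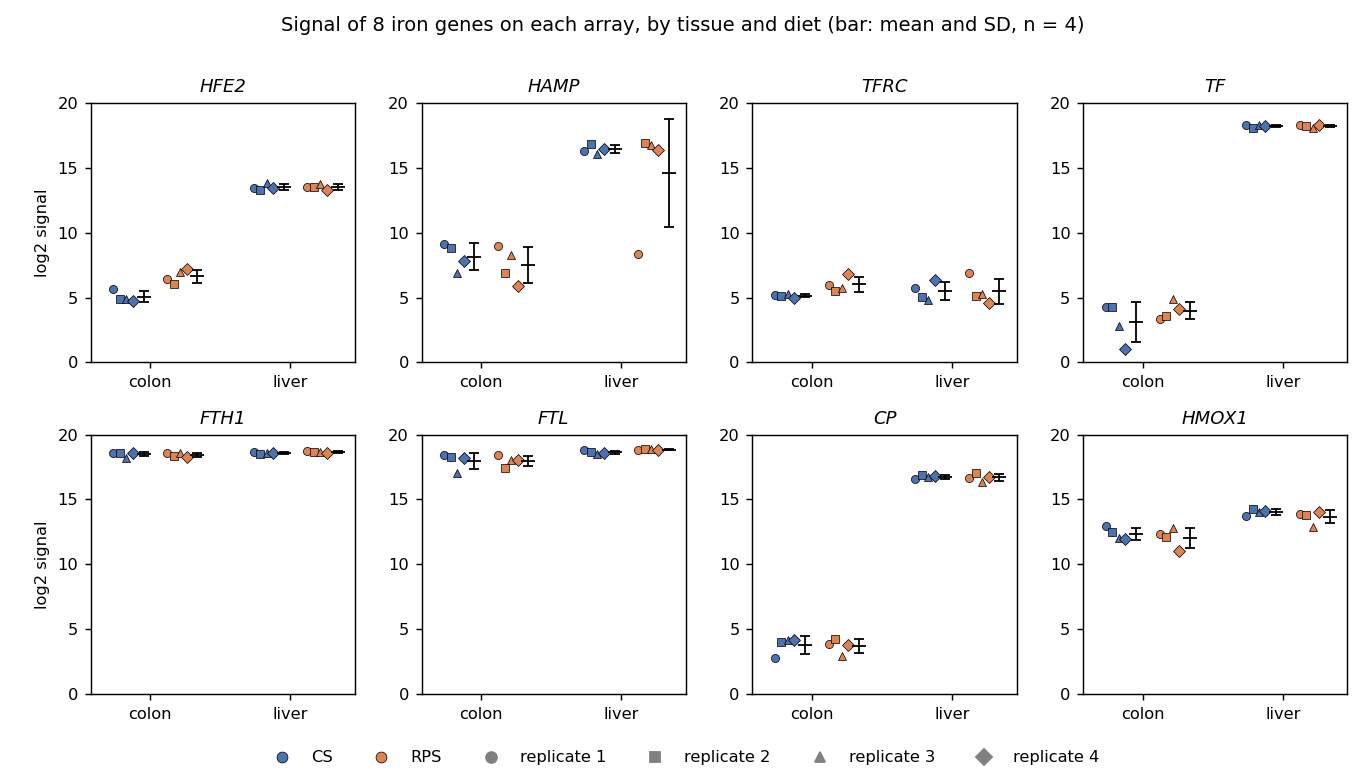
Log2 signal of the 8 iron genes at their brightest probe on every array, by tissue and diet (CS blue, RPS orange; the symbol gives the replicate number; the black bar gives mean and SD of 4 arrays), with each tissue normalized on its own. HFE2 and TFRC in the colon show RPS above CS without overlap, and HAMP in the liver shows 1 RPS array at 8.35 far below the other 7.

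The remaining members showed no such separation in the colon. HAMP had lower means with RPS at both probes (-0.64 ± 0.79 and -0.52 ± 0.72), and its values spread widely, from 6.89 to 9.16 with CS and from 5.88 to 9.01 with RPS at A_72_P302614. All 10 FTH1 probes had lower means with RPS, at -0.48 to -0.01 with a median of -0.23, and with 75th-percentile scaling 5 were lower and 5 higher. HMOX1 had lower means at all 3 probes, -0.29 ± 0.41 at the brightest and -0.73 ± 0.41 at A_72_P622079, and RPS replicate 4 was lowest at each. Without that array the brightest probe differed by 0.06, and without the 3 arrays lowest in epithelium genes by 0.13, with 2 of 3 probes then higher under RPS. The macrophage list, cells that express HMOX1 when they break down red cells, was also lowest in that pig, at 10.52 against 11.04 to 11.98 on the other colon arrays. Of its 7 genes 3 passed the thresholds, where 2.94% of all probes did. These were the C1Q genes C1QA (-0.88 ± 0.30), C1QB (-1.27 ± 0.32) and C1QC (-1.30 ± 0.36), all lower under RPS. AIF1 (-0.42 ± 0.29), CD163 (-0.30 ± 0.23), VSIG4 (-0.28 ± 0.73) and CD14 (0.00 ± 0.36) did not pass. The part of macrophages in the HMOX1 values was not tested. FTL differed by -0.01 ± 0.35. TF and CP were dim, and their brightest probes, well above background on 5 of 8 arrays each, differed by 0.90 ± 0.78 and -0.10 ± 0.40. Better detected were TF A_72_P687306, well above background on all 8 arrays (-0.04 ± 0.28), and CP A_72_P796449, on 7 arrays (0.00 ± 0.28).

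Within the colon, ferritin heavy chain and hepcidin were lowest on the same arrays, those with the lowest signals of epithelial genes. The 3 arrays lowest in the list of colonic epithelium genes were CS replicate 3 (11.88), RPS replicate 2 (12.94) and RPS replicate 4 (13.76). RPS replicate 4 lay nearer to the other 5 (14.14 to 14.56) than to RPS replicate 2. The cut at 3 arrays was set after the data were seen. The same 3 were the lowest of the 8 at all 10 FTH1 probes and at both HAMP probes, as they were for 5.1% of all probes, while 6.96% had them highest. At its brightest probe, A_72_P733169, FTH1 was 18.23 to 18.36 on these 3 and 18.55 to 18.62 on the other 5. The gap was wider at A_72_P757935, with 15.71 to 15.97 on these 3 and 16.70 to 17.17 on the other 5. HAMP (A_72_P302614) was 5.88 to 6.92 on them and 7.80 to 9.16 on the others. Its lowest value, 5.88, was on RPS replicate 4, the highest of the 3 in epithelium genes. Of the other members, 1 CP probe (A_72_P796449) had this order and none of HFE2, TFRC, TF, FTL and HMOX1 did. Without the 3 arrays, with 3 CS and 2 RPS arrays left, the diet difference of HAMP was 0.07 ± 0.50 and the median over the FTH1 probes -0.04. The part of epithelial cells in these values was not tested.

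**Figure D3:**
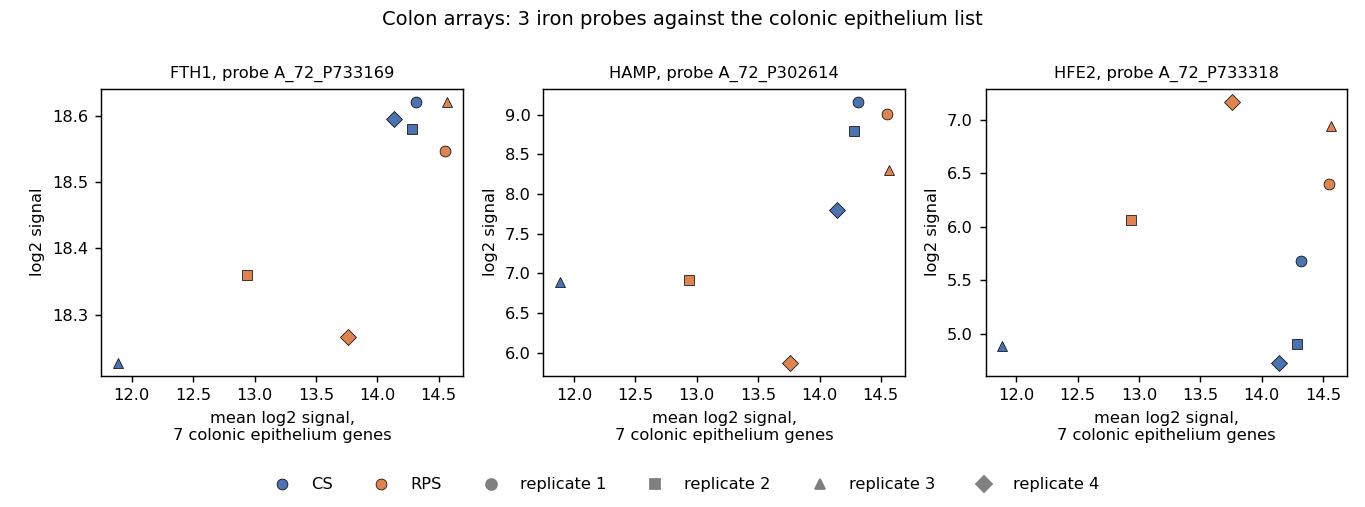
Log2 signal of the brightest FTH1, HAMP and HFE2 probes on the 8 colon arrays (vertical) against the mean log2 signal of 7 colonic epithelium genes on the same array (horizontal); colour gives the diet and the symbol the replicate. The 3 arrays at 11.88, 12.94 and 13.76 on the horizontal axis are the 3 lowest for FTH1 and HAMP, while HFE2 separates by diet.

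In the liver no member probe passed an unadjusted p of 0.05 together with a 1.5-fold change between the diets, where 3.56% of all probes did (limma). At an unadjusted p under 0.05 alone there were 8 of 28 (5 of FTH1, 2 of TF and FTL), each under 1.5-fold, against 7.59% of all probes at that p. The 5 FTH1 probes include 4 that overlap in sequence, and the lowest adjusted p of a member was 0.479. Over all probes, 1 had an adjusted p under 0.05 in the liver. HFE2, the gene with the colonic difference, was level in the liver at its brightest probe: A_72_P733318 stood at 13.49, 13.29, 13.85 and 13.47 with CS and at 13.55, 13.52, 13.77 and 13.28 with RPS, a difference of 0.00 ± 0.15 (adjusted p = 0.9995, exact permutation p = 0.971, two-sided). A_72_P708855 differed by 0.07 ± 0.25. A_72_P744195 differed by -0.42 ± 0.40 (adjusted p = 0.851, limma), at 10.88 to 11.43 with CS and at 11.34, 9.70, 11.48 and 10.43 with RPS.

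Hepcidin was far lower in the liver of 1 pig than in the other 7. HAMP (A_72_P302614) stood at 16.34, 16.85, 16.10 and 16.47 with CS, and at 16.94, 16.79 and 16.41 in RPS replicates 2, 3 and 4, but at 8.35 in RPS replicate 1. The coding probe A_72_P458477 read the same: 7.06 in that liver and 14.69 to 15.63 in the other 7. The 2 probes share no run of 15 bases, and both were well above background there. The drop below the lowest of the other 7 livers was 7.75 and 7.64 on the log2 scale. Among the 24978 probes above background on all liver arrays these were the 2 widest such drops on that array, and the next was 2.30; on each of the other 7 arrays the widest drop of any probe was 2.12 to 3.29.

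That single liver set the hepcidin comparison between the diets. The difference was -1.82 ± 1.89 with it (adjusted p = 0.861, exact permutation p = 0.886, two-sided) and 0.27 ± 0.21 without it (adjusted p = 0.910). The same liver had the highest TFRC of the 8, at 6.87 against 4.60 to 6.39 in the others. It also had the highest value at all 10 FTH1 probes, by 0.03 to 0.16 above the next. Its HFE2 signal (13.55), its FTL (18.85 against 18.53 to 18.87), TF, CP and HMOX1 lay within the range of the other 7. Of the 45 pathway genes, 5 were lowest and 6 highest in this liver. The colon array with the same number was not the lowest in HAMP (9.01, the second highest of 8), but replicate numbers are not stated to mark the same animal.

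**Figure D4:**
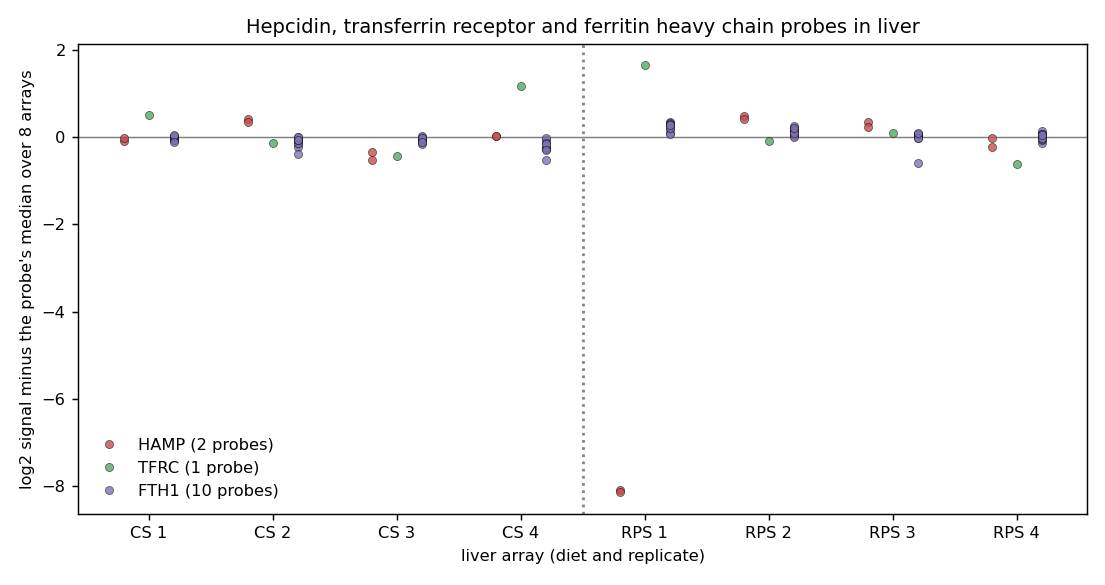
Log2 signal of the 2 HAMP, 1 TFRC and 10 FTH1 probes on each liver array, minus the median of that probe over the 8 liver arrays. RPS replicate 1 lies far below 0 for both HAMP probes (its log2 signals were 8.35 and 7.06), is highest for TFRC and is highest for every FTH1 probe.

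Ferritin heavy chain had a higher mean in the livers of RPS pigs at 9 of its 10 probes, with no probe past the adjusted test. At its brightest probe, A_72_P733169, the difference was 0.07 ± 0.07 (limma adjusted p = 0.852, exact permutation p = 0.114, two-sided) and the diets overlapped. The widest difference of the 10 was at A_72_P757935. There FTH1 stood at 17.32, 16.99, 17.22 and 16.85 with CS and at 17.69, 17.53, 17.45 and 17.45 with RPS, without overlap. The difference was 0.43 ± 0.12 (adjusted p = 0.479, exact permutation p = 0.0286, two-sided, the smallest that 4 against 4 allows). The 4 probes of the first overlapping chain also did not overlap between diets, at 0.29 to 0.32, with adjusted p between 0.485 and 0.517. The 4 probes of the second chain differed by -0.05 to 0.08 and overlapped. In all, 5 of 10 FTH1 probes and 6 of 28 member probes were without overlap, against 4.45% of all probes, and every FTH1 difference was under 1.5-fold. Without RPS replicate 1 (4 CS against 3 RPS arrays), 9 of 10 were higher and 5 of 10 without overlap. Separation is easier to reach with fewer arrays. With 75th-percentile scaling 9 of 10 were higher but only 1 was without overlap. The share over all probes was not computed for either setting.

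The light chain FTL stood at 18.80, 18.66, 18.53 and 18.62 with CS and at 18.85, 18.87, 18.87 and 18.80 with RPS (difference 0.20 ± 0.08, adjusted p = 0.632), with CS replicate 1 reaching the lowest RPS pig. TF was without overlap at 1 of 3 probes in the other direction: A_72_P687306 stood at 14.12 to 14.53 with CS and 13.65 to 14.09 with RPS (-0.34 ± 0.14, adjusted p = 0.658). Its brightest probe differed by 0.01 ± 0.09. All 5 CP means were lower with RPS, at -0.34 to -0.06, and all 3 HMOX1 means too, at -0.38 to -0.21, with RPS replicate 3 lowest at each HMOX1 probe; none of these 8 separated the diets. TFRC differed by -0.02 ± 0.55, and the ferroportin-described probe by -0.36 ± 0.22 (adjusted p = 0.762).

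**Figure D5:**
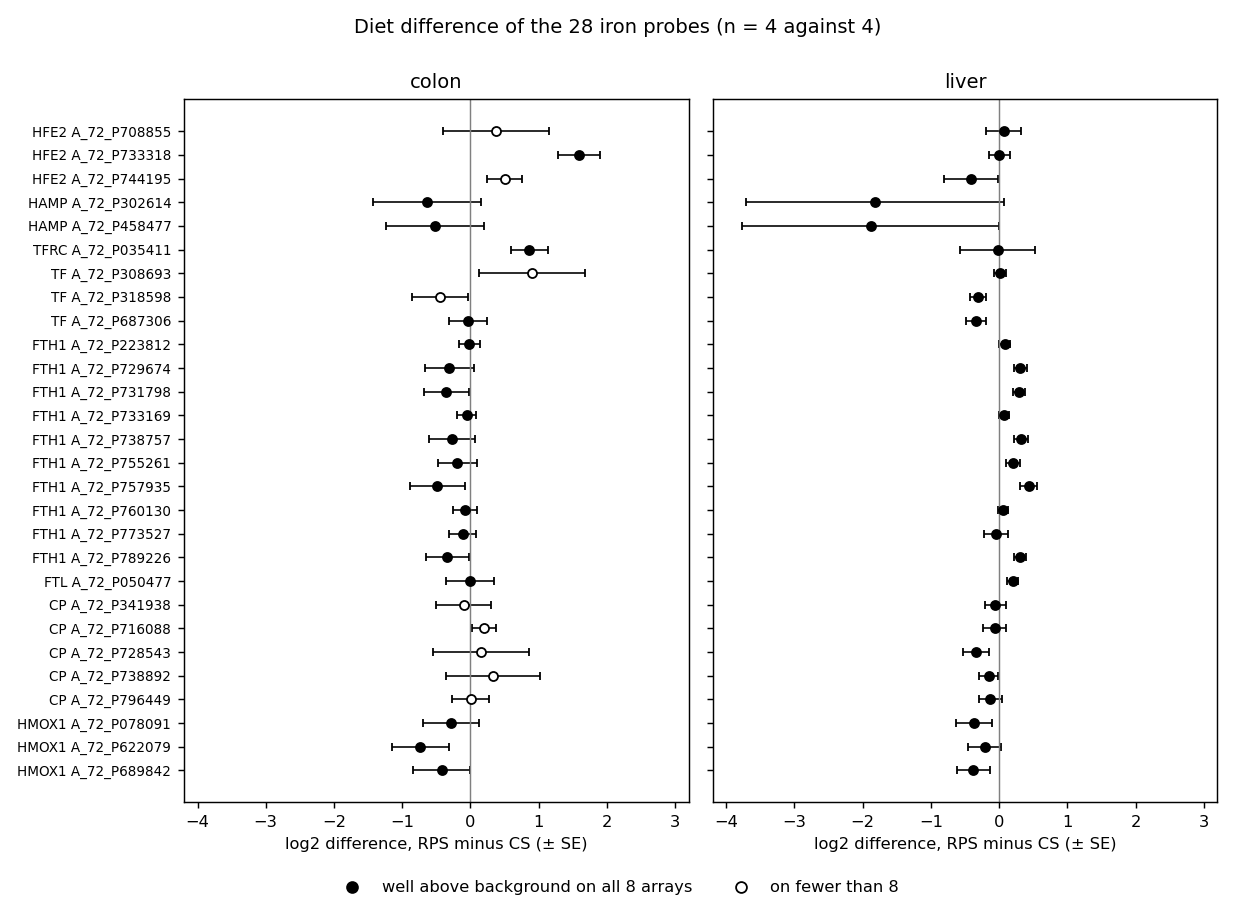
Log2 difference, RPS minus CS, of the 28 member probes in colon (left) and liver (right) with its SE (n = 4 against 4); open points were well above background on fewer than 8 arrays of the tissue. The colonic HFE2 probe lies at 1.59 and its liver value at 0.00, the HAMP probes in liver carry the widest errors, and 9 of 10 FTH1 probes lie to the right of 0 in the liver and all 10 to the left in the colon.

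No gene of the 6 pathway lists passed the thresholds between the diets in either tissue (0 of 45 in each, against 2.94% and 3.56% of all probes). In the liver 1 of the 45, IREB2, had an unadjusted p under 0.05 (limma), against 7.59% of all probes. The median difference over the 45 genes was 0.03 in the colon and -0.00 in the liver, and over all probes 0.01 and -0.00. The 18 genes by which BMP and SMAD proteins control hepcidin had a median of 0.14 in the colon and -0.03 in the liver. BMP6, the ligand that signals iron load to hepatocytes, was well above background on no array, although its tissue difference (-1.47) is among the 25 called higher in the liver. IREB2, an iron regulatory protein that binds TFRC and ferritin mRNA, was also the 1 of the 45 without diet overlap in the liver. Over all probes 4.45% were without overlap there. The IREB2 difference was 0.50 ± 0.11 (limma adjusted p = 0.349), under the fold threshold. IREB2 was singled out after its values were seen. The diet comparisons of the 2 tissues share no array, and no test of a difference between the tissues was made, because it would use the colonic values on which HFE2 was chosen.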

How the data were processed

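RNA of 16 samples was hybridised to one-colour Agilent porcine arrays. The authors scanned them and deposited, per the file headers, Feature Extraction 10.7 intensity values per spot, with background subtracted and not normalized between arrays. They also deposited a table of log2 values, quantile normalized over the 16 arrays; its member values differed from such a normalization of the intensities by at most 0.0277. Here control spots were left out, outlier spots set to missing, log2 signals quantile normalized (within a tissue for diet, over 16 arrays for tissue) and spots averaged per probe. Differences were fitted with limma 3.58.1 in R 4.3.3 over 43603 probes, with Benjamini-Hochberg adjustment. Calls required at least a 1.5-fold change, with p under 0.05 unadjusted for diet and adjusted for tissue. A gene was read at its brightest probe over the 16 arrays; from the pathway lists, genes called by diet and the 4 widest called differences per direction between tissues were named. "At least" folds set the dim group at the lowest well-measured signal of each array. The number of arrays limits the precision. The fits were tested on simulated data. Members and lists (iron pathways, hepatocytes, colonic epithelium, macrophages, skeletal and smooth muscle, endothelium, neutrophils, red blood cells) were chosen with earlier results of these data known. Alternatives were other scalings, background correction, filters, tests and left-out arrays. Genomic positions were not used here.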

Additional observations from a re-analysis of the deposited data

Results flagged for a closer look

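Dixon's test for a lone extreme value was applied to every member probe in every group of 4 arrays. Of 112 groups 9 passed, where chance passes about 1 in 20 of independent groups. These groups are not independent, because several probes read the same gene on the same arrays, and nothing is read from the count. The 2 HAMP probes in the liver of RPS replicate 1, at 8.35 (A_72_P302614) and 7.06 (A_72_P458477), were the only ones with a gap of several log2 units. FTH1 passed for colon CS replicate 3 at 18.23 (A_72_P733169) and 16.99 (A_72_P789226), the colon array lowest in epithelium genes, and for liver CS replicate 4 at 17.46 (A_72_P729674). CP passed for colon CS replicate 3 at 3.65 (A_72_P796449), for liver CS replicate 2 at 17.01 (A_72_P738892), and, at dim signals, for colon CS replicate 1 at 2.78 (A_72_P341938, well above background on 3 of the 4 arrays) and colon RPS replicate 1 at 1.59 (A_72_P716088, on none). No member probe had all RPS arrays above the CS arrays in one tissue and all below them in the other, and the difference between tissues was not tested.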

How the results depend on the processing

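The number of members called in the liver by diet was 0 under every alternative run, and that between tissues was 18, and 17 to 19 without each array in turn, 23 with 75th-percentile scaling, 16 in CS pigs only, 21 in RPS pigs only and 16 without the 3 colon arrays lowest in epithelium genes. In the colon it was 2, as a description only, and 4 with 75th-percentile scaling, 1 with normexp correction and 1 with all 16 arrays in 1 fit. Without each array it was 2 to 3. The calls over all probes were 1283 in the colon, and 1955 with 75th-percentile scaling (68.6% of them higher with RPS, against 55.2%), 172 with normexp, 779 with dim probes left out, 1067 to 2635 without each array (2635 without RPS replicate 2) and 2645 without the 3 arrays lowest in epithelium genes, a setting chosen after seeing the data. In the liver they were 1554, and 220 with normexp, 965 with dim probes left out and 1408 to 2029 without each array. Between tissues they were 18379, 10833 with normexp and 18116 to 18344 without each array. The methods' t-test called 963 probes in the colon and 1146 in the liver, and 0 and 1 after Benjamini-Hochberg adjustment. The cause of these shifts was not tested.

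The gene values that changed sign between tissues or by diet in the liver were all uncalled. Among them, FTH1 between tissues with 75th-percentile scaling missed only the fold threshold (limma adjusted p = 0.00171). Between tissues FTH1 was -0.56 with 75th-percentile scaling, -0.037 in RPS pigs only and -0.29 over all its probes, and -0.0011 to 0.083 without each array, and TFRC was 0.027 in RPS pigs only. By diet in the liver HFE2 was -0.0044 in the authors' table, -0.0021 with outlier spots kept and -0.12 over all its probes, TF was -0.0058 with 75th-percentile scaling and -0.21 over all its probes, and TFRC was 0.0026 with normexp. Without each liver array HAMP ranged from -2.59 to 0.27 (0.27 without RPS replicate 1), HFE2 from -0.078 to 0.11, TF from -0.045 to 0.057, TFRC from -0.48 to 0.28 and CP from -0.16 to 0.066. By diet in the colon, where values are a description only, 75th-percentile scaling turned FTH1 to 0.31 and FTL to 0.33. There FTL was 0.065 with normexp and CP was 0.12 over all its probes. HAMP was 0.07 and HMOX1 0.13 without the 3 arrays lowest in epithelium genes. Without each colon array FTH1 ranged from -0.15 to 0.0046, FTL from -0.32 to 0.18, CP from -0.43 to 0.16 and HMOX1 from -0.54 to 0.062.

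Same-numbered samples were not treated as pairs, since the labels do not say that a number marks 1 pig and the arrays do not bear it out in both diets. Deviations of colon and liver arrays of one number correlated at 0.16 to 0.33 for CS, each best with its own number, a hint of pairing there, but at -0.08 to 0.07 for RPS. With the replicate number as a block, members called stayed at 2, 0 and 18, and probes called were 1267 in the colon, 1522 in the liver and 18433 between tissues.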

Other observations

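Blood and vessel genes that could carry iron-related RNA into the samples were measured beside the members. Of 3 red blood cell genes, none was detected on any colon array or on all 8 liver arrays, and 2 were higher in the liver. Neutrophil genes had a median diet difference of 0.81 in the colon, with 2 of 8 past the thresholds and higher under RPS, and of -0.61 in the liver, with 1 of 8 lower. Of 7 endothelial and 4 smooth muscle genes none passed in either tissue; between tissues 5 endothelial genes were higher in the liver and 1 in the colon, and 2 smooth muscle genes were higher in the colon. Of 10 skeletal muscle genes 1 was higher under RPS in the liver. Of 7 macrophage genes 0 passed in the liver.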
